A study of Drosophila melanogaster with 4 samples.

Results

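The left arm of chromosome 3 of Drosophila melanogaster, 3L, carried 924 of the 4366 regions where RNA polymerase II (Pol II) was called enriched in whole embryos, or 21.2% of the list. They are all rows placed on 3L proper, without the heterochromatic scaffold 3LHet, in the list of the whole series. Chromatin immunoprecipitation followed by sequencing (ChIP-seq) was done on mixed embryos collected from 0 to 24 h, in 2 chromatin extractions called replicate 1 and replicate 2. The antibody was CTD4H8, a mouse monoclonal raised against a phosphorylated peptide of the carboxyl-terminal repeats of Pol II, and the labels name no strain, genotype or treatment. The series also has 2 input samples, sequenced without the antibody, which were not used here. No region was therefore set against a background level beyond whatever the authors' calling did, and the control of that calling is not given. Positions are on FlyBase r5.1 and count from 1.

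Pol II transcribes the protein-coding genes. It gathers at promoters, where in flies it often pauses a short way downstream of the start site before it is released into the gene, so ChIP-seq of Pol II typically gives a focused peak at a start and, at strongly transcribed genes, a broad signal over the gene body. The repeats at the carboxyl terminus of its largest subunit are phosphorylated as it moves from initiation to elongation. Whole embryos of all stages hold every embryonic tissue, so a region gives an average over cells, and fewer cells using a gene and less Pol II per cell cannot be told apart. 3L is a large autosomal arm whose low coordinates lie at the telomere and whose high coordinates run into the gene-poor chromatin around the centromere.

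Each 3L region had 3 values: a score in the whole-series list and the scores of the regions it overlapped in both replicate lists. In 914 regions (98.9%) the whole-series score was the mean of the 2 replicate scores, so it is not a separate measurement. The score is the authors' own and has no stated unit, and it was ranked only within 3L. On 3L, replicate 1 held 1214 regions covering 264 kb, replicate 2 held 1812 covering 526 kb, and the whole-series list covered 395 kb, or 1.64% of the arm. No read counts are given in these lists, and the depth of the libraries is unknown. Scores on 3L were not finely graded in the replicate lists: the 1214 regions of replicate 1 took 732 distinct values, of which 2.23 occurred 33 times, and the 1812 of replicate 2 took 1253. Ranks among low scores of one replicate are therefore often tied.

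All 924 regions overlapped both replicate lists, and the outer ends of each were those of the replicate regions it joined. A single region of each replicate made up 871 of them (94.3%, against 94.0% of the whole series). Replicate 1 was more often the divided one, with 43 regions joining several of its calls against 10 joining several of replicate 2. The call of replicate 1 lay wholly inside that of replicate 2 in 734 regions (79.4%), the reverse held in 38, and 152 were staggered. In the 871 single pairs the midpoints were a median of 18.5 bp apart (quartiles 7 and 64.2 bp). In 49 pairs (5.63%) the midpoints were more than 200 bp apart. The fragment sizes selected for the libraries were 150 to 200 bp. Calls had to overlap to be joined, which by itself keeps the midpoints of narrow calls close. These distances are therefore no separate measure of agreement in position. The call of replicate 2 was wider in 836 regions (90.5%, against 89.4% of the whole series). The median width was 172 bp in replicate 1 and 270 bp in replicate 2 over the same 924 regions.

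**Figure D1:**
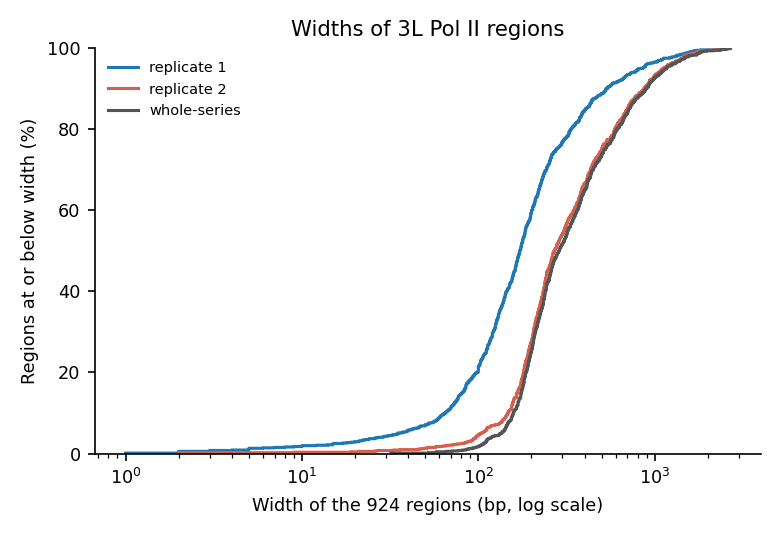
Cumulative share of the 924 regions of 3L (vertical axis, %) against width (bp, log scale) in replicate 1, replicate 2 and the whole-series list. The replicate 2 line lies to the right of replicate 1 through most of its course, with medians of 270 and 172 bp, and the whole-series line, which takes the outer ends, has a median of 288 bp.

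Scores of the 924 regions were somewhat higher in replicate 2, with wide scatter. The median was 2.60 in replicate 1 (quartiles 2.04 and 3.63) and 3.12 in replicate 2 (2.24 and 4.62). Replicate 2 was the higher in 587 regions (63.5%, Wilson 95% interval 60.4% to 66.6%), against 65.0% of the whole series, and the score ranges of both replicates overlapped. On the log2 scale replicate 2 exceeded replicate 1 by a median of 0.18, with an SD over regions of 0.61, so the usual shift was smaller than the spread between regions. Within 2-fold lay 814 regions (88.1%). A total of 91 were more than 2-fold higher in replicate 2, against 10.4% of the whole series, and 19 more than 2-fold higher in replicate 1, against 1.97%. Across the 924 regions, which share the same 2 libraries and are not replicates, Spearman rho of the scores was 0.52. Of the 231 regions in the top quartile of replicate 1, 130 (56.3%) were in the top quartile of replicate 2 and 11 in its bottom quartile.

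**Figure D2:**
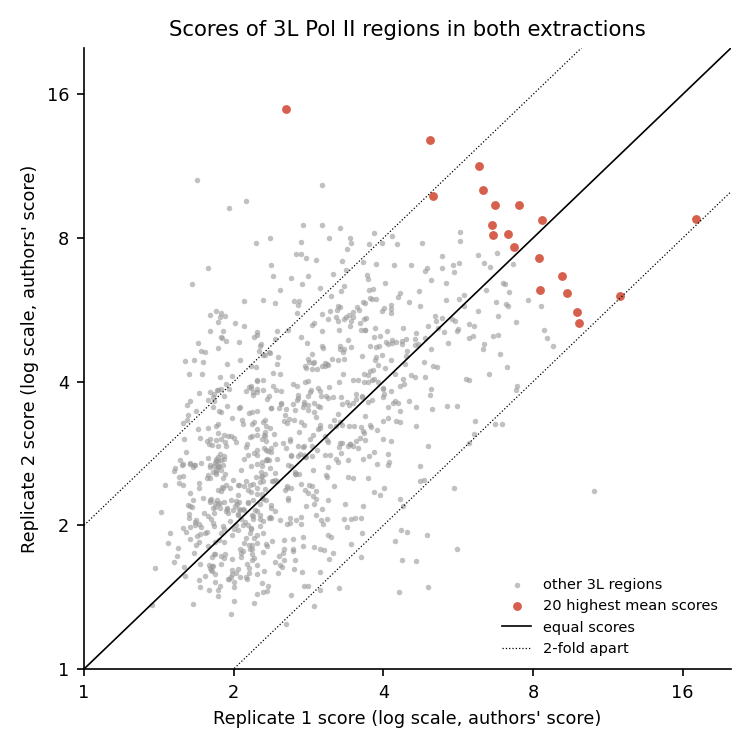
Replicate 2 score against replicate 1 score for the 924 regions of 3L (both axes logarithmic, authors' score), with the 20 highest by whole-series score in red. The solid line marks equal scores and the dotted lines 2-fold differences; 814 regions lie within them, 91 above and 19 below.

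The highest-scoring Pol II region of the arm was at 9498247 to 9498492, 246 bp wide. Ranks by replicate score are given among the 924 regions, by the mean score of the calls each joins, and leave out calls found in a single replicate. Its score was 17.0 in replicate 1, where it ranked first, and 8.79 in replicate 2, where it ranked 12th, with a mean of 12.9 ± 5.79 (SD, n = 2). The second, at 3902565 to 3902745, scored 12.0 and 6.05 (mean 9.00 ± 4.17) and ranked 88th in replicate 2. Both scored lower in replicate 2, with log2 ratios of replicate 2 over replicate 1 of -0.95 and -0.98. The third, at 13375804 to 13377023, went the other way, with 4.96 in replicate 1 and 12.9 in replicate 2 (mean 8.91 ± 5.58). It was also broad, 1220 bp, with nearly the same span in both extractions (1210 and 1220 bp).

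Next came a region of 234 bp at 3825434 to 3825667, with scores of 6.22 and 11.3 (mean 8.78 ± 3.62, SD, n = 2 as for each mean here) and no other region of the arm within 10 kb. The fifth place rested on replicate 2 alone. That region, at 2894975 to 2895183, had the highest replicate 2 score of the arm, 14.9, but 2.55 in replicate 1, where it ranked 478th, and its SD of 8.72 equalled its mean of 8.72.

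The next 2 were high in both extractions and wider than most. The region at 5591757 to 5592679, 923 bp wide, scored 8.36 and 8.73 (mean 8.54 ± 0.26) and ranked 11th and 13th. The one at 14962326 to 14963208, 883 bp wide, scored 7.51 and 9.39 (mean 8.45 ± 1.33) and ranked 16th and 10th. The region at 13470495 to 13470772, 278 bp wide, scored 7.14 and 8.16 and ranked 23rd and 20th.

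Ranks 8 to 13 held narrower regions. The region at 14699766 to 14700029 scored 6.34 and 10.1 in replicates 1 and 2, and the nearest other region was 33697 bp away. At 8365428 to 8365671 the scores were 6.70 and 9.40. At 10850882 to 10851144 they were 9.15 and 6.67, so replicate 1 was the higher there. It was also the higher at 11245247 to 11245564 (8.21 and 7.27), at 6249595 to 6249839 (9.35 and 6.12) and at 16654448 to 16654877 (9.80 and 5.61). In this last region the call widened from 256 bp in replicate 1 to 430 bp in replicate 2 while the score was lower there.

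The remaining regions of the first 20 had mean scores of 7.23 to 7.59. That at 7087849 to 7088092 had the smallest spread of the 20, with 7.32 and 7.67 (SD 0.24). At 6696458 to 6696764 replicate 1 scored 9.89 and replicate 2 scored 5.30, the lowest replicate 2 score of the 20. The region at 22938695 to 22938891, which scored 6.62 and 8.53, was the one nearest the centromere, and its nearest neighbour was 52514 bp away. The others were at 13487767 to 13488050 (5.03 and 9.79), at 21051832 to 21052083 (6.64 and 8.11) and at 19163594 to 19163848 (8.24 and 6.23).

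As a set, the 20 had widths near those of the arm. Their median width was 259 bp, against 287.5 bp over all 924 regions (quartiles 199.75 and 521.25 bp). Of the 20, 17 were under 450 bp wide and 3 over 800 bp, a class that held 114 of all 924. A total of 6 of the 20 had no other region within 10 kb, against 292 (31.6%) of all 924. Like 871 of the 924, each of the 20 joined a single region of either replicate. Replicate 2 was higher in 12 and replicate 1 in 8, and 18 lay within 2-fold. The order among them differed between extractions: when the 924 regions were ranked by replicate 1 score and by replicate 2 score, the first 20 of both had 3 regions in common. Each of those lists shared 11 regions with the 20 ranked by the whole-series score, an overlap that the averaging of both scores favours. Among the first 100 by either replicate, 41 were shared.

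**Figure D3:**
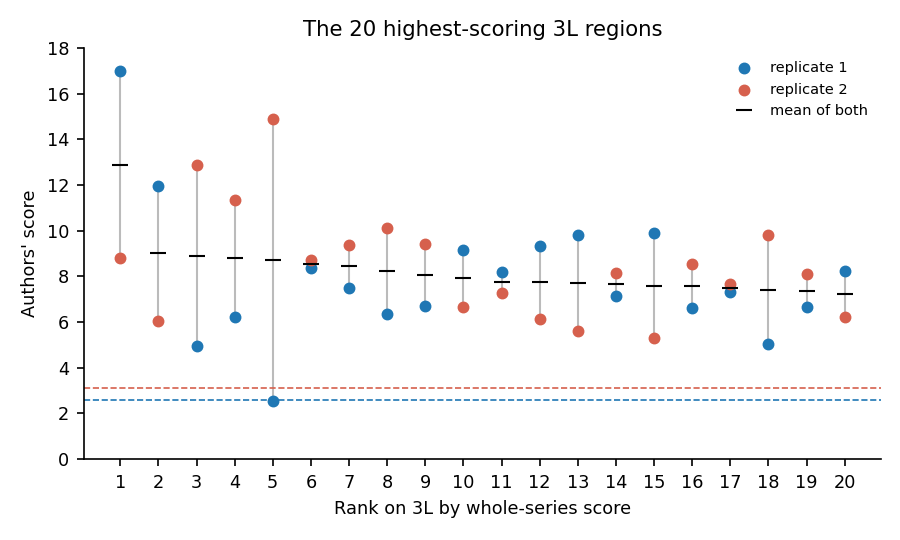
Authors' score (vertical axis, from 0) in replicate 1 and replicate 2 of the 20 highest-scoring 3L regions, by rank of the whole-series score, with the mean of both as a dash. The dashed lines are the medians over all 924 regions (2.60 in replicate 1, 3.12 in replicate 2); the fifth region is the one whose replicate 1 score, 2.55, lies below its line.

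The regions that differed most between extractions, 5 in each direction, were as follows. Log2 ratios above 2 in favour of replicate 2 occurred at 7182902 to 7183075 (1.69 and 10.6, log2 ratio 2.64), at 2894975 (described above, log2 ratio 2.55), at 3194532 to 3196697 (1.95 and 9.24, 2.24) and at 5684466 to 5684681 (2.12 and 9.55, 2.17). The region at 3194532 differed in extent too, since replicate 1 called 37 bp of it and replicate 2 all 2166 bp. The fifth of this kind, at 21699313 to 21699555, scored 1.78 and 6.92. In the other direction, the region at 7150062 to 7150239 ranked 3rd by replicate 1 score, with 10.6, and 664th by replicate 2 score, with 2.36 (log2 ratio -2.17). It was followed by 8516470 to 8516667 (4.93 and 1.48), 16066419 to 16066549 (5.62 and 1.78), 19994301 to 19994743 (4.30 and 1.45) and 4542064 to 4542204 (4.65 and 1.68). Of these 10 regions, 8 were under 250 bp wide, against 393 (42.5%) of all 924, and 6 had no other region within 10 kb, against 292 (31.6%). A difference between 2 lists of 1 extraction each has no replicate check.

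Regions of 3L called in a single extraction had lower median widths and scores than shared ones. Of the 1214 regions of replicate 1, 971 (80.0%, Wilson 95% interval 77.6% to 82.1%) overlapped replicate 2 by at least 1 bp, against 80.0% of the whole series. Of the 1812 of replicate 2, 937 (51.7%, 49.4% to 54.0%) overlapped replicate 1, against 49.9% of the whole series. The 243 unmatched regions of replicate 1 had a median width of 58 bp and a median score of 2.23, against 170 bp and 2.60 for the matched ones. The 875 unmatched regions of replicate 2 had medians of 124 bp and 2.12, against 266 bp and 3.10. The quartiles of score overlapped in both lists, so a low score did not separate the unmatched from the matched. Of the unmatched replicate 1 regions, 153 (63.0%, 56.7% to 68.8%) lay within 1 kb of a replicate 2 region, with a median distance of 671 bp. Of the unmatched replicate 2 regions, 297 (33.9%, 30.9% to 37.1%) lay within 1 kb of a replicate 1 region, with a median distance of 2715 bp. The list of replicate 1 is shorter, and the part of list length in this distance was not tested.

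**Figure D4:**
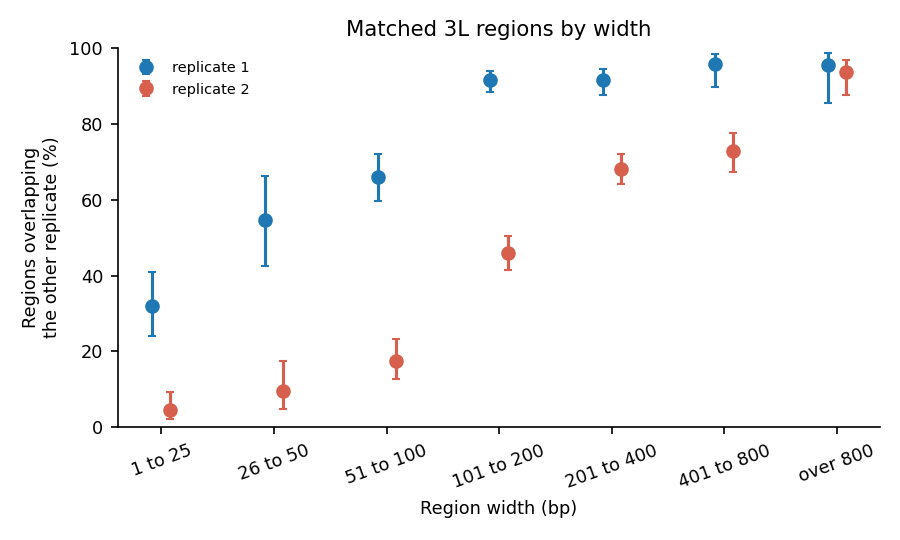
Share of 3L regions of each replicate that overlap the other replicate by at least 1 bp (%), by width class in bp, with Wilson 95% intervals that cover counting error only. From the narrowest to the widest class the share goes from 31.9% to 95.7% in replicate 1 and from 4.44% to 93.8% in replicate 2.

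The matched share climbed earlier in replicate 1. It was 31.9% among its 113 regions of up to 25 bp, 66.1% at 51 to 100 bp and 91.6% at 101 to 200 bp. In replicate 2 it was 4.44% among 135 regions of up to 25 bp, 46.0% at 101 to 200 bp, 72.8% at 401 to 800 bp and 93.8% among the 112 wider than 800 bp. A wider region meets the overlap rule more easily, and its part in the rise was not tested. The lists also differ in length. With equal numbers of top regions the matched shares were 64.6% in replicate 1 and 61.9% in replicate 2. The narrowest calls of replicate 2 did not score low: those of up to 25 bp had a median score of 2.64, above the 2.18 of regions of 51 to 100 bp.

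The highest-scoring unmatched regions of replicate 2 were at 880593 to 880632 (score 9.79, 40 bp), at 3987081 to 3987186 (9.62, 106 bp) and at 9477907 to 9477943 (8.11, 37 bp). They were followed by 20769333 to 20769345 (7.52, 13 bp) and by a single base, 2262151 (7.32). In replicate 1 they scored lower, at 17946698 to 17946718 (5.77, 21 bp), 3297066 to 3297079 (5.51, 14 bp), 13859908 to 13860068 (5.43, 161 bp) and 19699735 to 19699772 (5.21, 38 bp). The fifth, at 230068 to 230674 (4.85), was the widest of these 10, with 607 bp, and it lay just proximal to a dense run described below.

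Broad regions, at least 1000 bp wide, numbered 67 on 3L (7.25%, Wilson 95% interval 5.75% to 9.11%), against 7.10% of the whole series, and held 24.4% of the covered length. These widths run between the outer ends of the joined calls. Calls of at least 1000 bp numbered 27 in replicate 1 (2.22%) and 60 in replicate 2 (3.31%). At most 27 of the 67 were therefore that wide in a call of replicate 1, and the 67 are not all broad in both extractions. Width and whole-series score were nearly unrelated across the 924 regions (Spearman rho = -0.0036). Within the replicate lists, over their own calls and widths, rho was 0.27 in replicate 1 and 0.09 in replicate 2. By whole-series width the relation was not flat. The median score was 2.84 at 101 to 200 bp, 3.44 at 201 to 400 bp, 2.68 at 401 to 800 bp and 2.90 above 800 bp, and the same class of 201 to 400 bp had the highest median of these classes in the replicate scores of the 924 regions, 2.88 in replicate 1 and 3.71 in replicate 2. When all calls of a replicate were classed by their own width, those over 800 bp had the highest median, 3.55 against 2.90 at 201 to 400 bp in replicate 1 and 3.09 against 2.83 in replicate 2.

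The widest region of the arm, at 19683576 to 19686268, spanned 2693 bp and was called over 2670 and 2680 bp in replicates 1 and 2, with scores of 3.48 and 5.60. The region at 13108348 to 13110746, 2399 bp wide, was likewise nearly the same in both extractions (2368 and 2399 bp, scores 3.62 and 4.53). At 10187697 to 10189530 the spans were 1817 and 1596 bp and the scores 3.42 and 2.96. These 3 were single calls in both replicates with similar extents.

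Other wide regions were divided in one extraction. At 830882 to 833448 replicate 1 called 2567 bp at once, with a score of 2.89, and replicate 2 called 3 regions summing to 1263 bp, with a mean score of 3.09. The regions at 7354885 to 7356776 and at 227652 to 229377 were also single in replicate 1 and made of 3 calls in replicate 2. The reverse held at 5743391 to 5745365 and at 22863599 to 22865334, with 3 calls in replicate 1 and 1 in replicate 2. The former scored 2.42 and 5.84, and the latter 2.89 and 2.31. No region of the arm joined more than 3 calls of a replicate. Divided into 2 calls in replicate 1 were those at 6783681 to 6786195 (scores 4.07 and 5.12), 22659486 to 22661825 (4.25 and 4.83) and 639363 to 641192 (4.17 and 4.90).

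Neighbouring regions of 3L were a median of 10679 bp apart, with quartiles of 2032 and 32347 bp. Of the 923 gaps, 161 (17.4%) were under 1 kb, 286 were 1 to 10 kb, 436 were 10 to 100 kb and 40 were 100 kb or more, and those 40 took up 24.3% of the arm. In one place regions touched with no base between them, at 16767608 to 16768722 and 16768723 to 16769425, with scores of 3.07 and 3.30.

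Regions with a near neighbour and regions that stood alone differed in shape. The 266 regions with another under 1 kb away had a median width of 412 bp (quartiles 238 and 703 bp) and a median score of 2.75, and 34 (12.8%, Wilson 95% interval 9.29% to 17.3%) were broad. The 283 regions at least 10 kb from any other had a median width of 234 bp (192 and 363 bp) and a median score of 3.41, and 5 (1.77%, 0.757% to 4.07%) were broad. The 375 regions with the nearest other 1 to 10 kb away had a median width of 285 bp and a median score of 2.80. Of these, 28 (7.47%) were broad. Near and lone regions differed more in score in replicate 2, with medians of 2.80 and 3.76, than in replicate 1, with 2.60 and 2.73. The quartiles of both measures overlapped between the classes, and the classes were set after the values were seen, with no test.

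A total of 30 runs joined 3 or more regions with gaps under 1 kb and held 116 regions (12.6%). The longest, at 632205 to 643665, had 11 regions within 11461 bp, which covered 61.0% of it. Its scores ranged from 2.12 to 4.53, so none was among the 20 highest of the arm, and its widest region, at 639363, spanned 1830 bp. Both replicates called it as 13 regions, and the member scores had medians of 2.98 in replicate 1 and 2.75 in replicate 2. The region at 632205 to 632348 scored 4.74 and 2.48, while that at 642728 to 643665 scored 2.96 and 3.88, so members of the run did not shift together between extractions.

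Next in number of regions were 10187697 to 10195013 and 5757109 to 5762879, with 6 each. The first covered 70.8% of its span and ended in its highest region, at 10194474 to 10195013, with scores of 5.67 and 5.97. In the second, 76.4% was covered, scores were low (1.71 to 3.42 in the whole-series list), and all 6 scored higher in replicate 2. The run at 223047 to 229377 held 5 regions, the highest at 224002 to 225471 (1470 bp, scores 6.73 and 5.87). The run at 4294453 to 4299607, also of 5, opened with a region of 1791 bp that scored 3.27 and 8.41. The second-highest region of the arm, at 3902565, lay in another run of 5, at 3901524 to 3904255, whose widest member was 393 bp.

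In blocks of 4 Mb along the arm, Pol II regions were most numerous at the telomere end and fewest at the centromere end. The first 4 Mb held 195 regions at a density of 48.8 per Mb (42.1 to 56.1, exact Poisson 95% interval), the next 4 blocks of 4 Mb held 146 to 160 each, at 36.5 to 40.0 per Mb, and the last block held 104, at 26.0 per Mb (21.2 to 31.5). The interval of the first block overlaps those of the middle ones, and that of the last block lies below that of the first. These intervals cover counting error only and are too narrow for the spread along an arm. In the arm comparisons below, counts per 1 Mb window varied 3.19 to 3.39 times as much as Poisson counts. The difference between blocks was not tested. Both replicate lists had the same extremes, with 251 and 373 regions in the first block and 140 and 214 in the last. Both end blocks were uneven by 1 Mb window. The first Mb held 69 whole-series regions, and the windows from there to 4 Mb held 44, 33 and 49. From 20 to 24 Mb the windows held 33, 43, 26 and 2. Mid-arm windows at 10 to 11 and 18 to 19 Mb held 25 each, so the counts form no steady gradient. By 1 Mb window the counts of the replicates had Spearman rho = 0.94 and Pearson r = 0.94 over 24 windows, which are pieces of 1 arm and not replicates. The outer 12.0 Mb held 515 regions (55.7%, Wilson 95% interval 52.5% to 58.9%) in the whole-series list, 54.2% in replicate 1 and 55.1% in replicate 2. With the first Mb left out, which was tried once the values were known, the share was 52.2%. The dividing point stayed the same, so the outer part was then shorter than the inner, and this share is not comparable with 55.7%.

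Widths and scores overlapped between the blocks. The median width was 237 bp in the first 4 Mb and 287 to 346 bp in the other blocks, and the median score lay between 2.70 (last block) and 3.20 (first block), with overlapping quartiles throughout. Replicate 2 scored higher in 57.5% (12 to 16 Mb) to 71.2% (20 to 24 Mb) of the regions of a block, with overlapping intervals. The 20 highest-scoring regions were spread over all 6 blocks, with 2 to 5 in each.

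On a finer scale of 100 kb, 27 of 240 windows held no whole-series region, and 21 of those held none in any list. The fullest, from 600 to 700 kb, held 21 regions, with 24 in replicate 1 and 27 in replicate 2, and contains the run of 11. The window from 8500 to 8600 kb held 19 (24 and 31), and those from 200 to 300 kb and from 7300 to 7400 kb held 14 each. The window from 5700 to 5800 kb held 12.

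The longest stretches without a whole-series region were 199 to 222 kb long. The longest, 23088655 to 23310493, lay close to the centromere and held no region in either replicate. The stretch at 16157908 to 16369465, 212 kb long, was different: replicate 1 held none there and replicate 2 held 10, with widths of 45 to 421 bp and scores of 1.61 to 4.32. Of those 10, 5 lay between 16332049 and 16337348. The stretches at 19330761 to 19544725, 9967868 to 10179033 and 22460079 to 22659485 held no replicate 1 region and 1, 2 and 3 of replicate 2. An empty stretch shows that nothing passed the caller's threshold, not that Pol II is absent, and how far its sequence is unique enough to place reads of 36 nt was not looked at.

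The last full Mb, from 23 to 24 Mb, held 2 whole-series regions (exact Poisson 95% interval 0.242 to 7.22), against a median of 41 per window on the arm. The first, at 23087750 to 23088654, had scores of 3.67 in replicate 1 and 3.39 in replicate 2. The other, at 23310494 to 23311109, scored 1.86 and 1.42. Around the first, replicate 1 alone called 4 more regions between 23085403 and 23087428. The last call of the arm was in replicate 1 alone, at 24028765 to 24028868, with a score of 2.23, and in replicate 2 it was at 23332338 to 23332781, with a score of 1.62.

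The density of 3L was set beside that of 2 other large autosomal arms, 2L and 3R. 3L held 38.5 ± 12.3 regions per Mb (SD over 24 windows), 2L 35.8 ± 10.0 (22 windows) and 3R 31.7 ± 8.97 (27 windows). In a quasi-Poisson regression over windows (n = 24 and 22), 3L had 1.07 times the regions of 2L (95% interval 0.898 to 1.29, p = 0.422 both before and after adjustment over the 2 comparisons). Against 3R (n = 24 and 27 windows) the ratio was 1.21 (1.02 to 1.44, p = 0.0262, adjusted p = 0.0524). Neither difference passed the threshold of 0.05 after adjustment. Over the same windows (n = 24 and 27), the difference from 3R passed with the list of replicate 1 alone (ratio 1.22, adjusted p = 0.0403) and not with that of replicate 2 alone (ratio 1.19, adjusted p = 0.0772). Without the first and last window of each arm (n = 22 and 25) it passed (ratio 1.22, adjusted p = 0.0157). Windows along an arm are neighbours and not separate extractions, so these p-values compare 2 arms in one pair of lists.

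**Figure D5:**
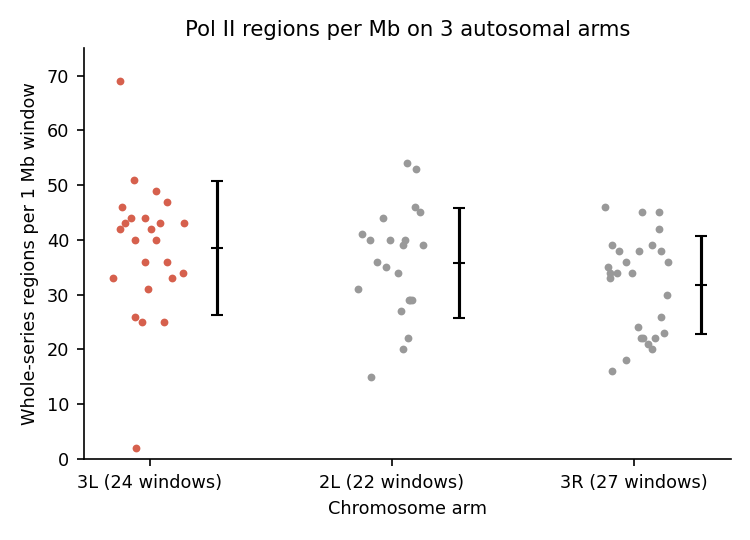
Whole-series Pol II regions in each full 1 Mb window (points, spread sideways at random) on 3L, 2L and 3R, with the mean and SD over windows as a dash with bars. The means are 38.5, 35.8 and 31.7; 3L has both the fullest window, with 69 regions, and the emptiest, with 2.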

How the data were processed

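Pol II ChIP of 2 chromatin extractions was analysed. The authors deposited GFF3 lists whose headers give FlyBase r5.1 as the build and whose second column names PeakSeq, a caller of enriched regions. The deposited score of each region has no name or unit in the files, so it was used only to describe and rank regions within 3L. Not given in the sources used here are the aligner, the control and the threshold. Per the labels, libraries were size-selected at 150 to 200 bp, and per the series' design text reads were 36 nt.

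Overlap meant at least 1 bp. The replicate score of a whole-series region was the mean score of the replicate regions it overlapped. Arm length was the furthest region end over the 3 lists, and windows took regions by midpoint. Arms were compared by quasi-Poisson regression of counts per 1 Mb window, with p-values adjusted after Benjamini and Hochberg. Intervals of shares (Wilson) and counts (exact Poisson) cover counting error only. Depth is unknown. The routines were tested on simulated data.

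Regions were named by rule: the 20 highest-scoring, the 10 widest, 5 each way by score ratio, 5 unmatched per replicate, 5 runs, 5 gaps and 5 regions joining most calls; the run at 3901524 and the regions at the centromere end were added after their values were seen. Members, lists and rules were chosen with earlier results of these data known. The gene table used here is of Release 6, not r5.1, so no gene or sequence was assigned. Computations used statsmodels 0.14.6, SciPy 1.17.1, pandas 2.3.3, NumPy 2.4.6, Matplotlib 3.10.9 and Python 3.11.15.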

Additional observations from a re-analysis of the deposited data

How the results depend on the processing

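No paired analysis was possible because the lists used here belong to 1 group, the ChIP samples, so no groups with shared replicate numbers were compared. Every alternative kept the direction of the density ratios. The ratio to 3R passed the threshold with windows of 500 kb (1.20), by an exact conditional binomial test that counts each region as independent (1.20), without the end windows (1.22) and with replicate 1 alone; over either replicate alone it was 1.19 to 1.22. It did not pass with windows of 2 Mb, added after the values were seen (1.20), in the upper 50% by score (1.19) or by covered bp (1.16). The ratio to 2L passed by the exact binomial test alone (1.10, adjusted p = 0.0430), and its range over single replicates was 1.03 to 1.08. The matched share of replicate 1 was 48.6% with 50% of both regions shared, 70.1% in the upper 50% by score, 64.6% with equal numbers of top regions and 89.9% for regions of at least 100 bp. That of replicate 2 was 32.6%, 45.9% and 61.9% under the first 3. The score cut shortened the partner list as well, so a call could lose its match by that alone. The falls under this cut therefore do not show that higher-scoring calls matched less often. With the full lists, matched calls had the higher median score, 2.60 against 2.23 in replicate 1 and 3.10 against 2.12 in replicate 2. Score rho was 0.11 in the upper 50%, a choice by the mean of both scores that lowers rho by construction, and 0.58 for width. In that upper 50%, 68.8% scored higher in replicate 2, runs numbered 5, the median gap was 32834 bp and 60.4% of regions lay in the outer 12.0 Mb; fewer regions give fewer runs and longer gaps. Over regions of any score, the outer share without the first Mb was 52.2%, with the outer part made shorter by that Mb. Over single replicate lists the median width was 146 to 204.5 bp, the broad share 2.22% to 3.31%, the outer share 54.2% to 55.1%, runs 74 to 117 and the median gap 3605 to 5611 bp. These lists hold more and narrower calls. Broad regions were 0.649% at 2000 bp, a stricter limit. Runs numbered 19 with gaps under 500 bp and 47 under 2000 bp. The replicate rankings shared 15 regions in the top 50, 41 in the top 100 and 11 of 20 by width. For the remaining shifts the cause was not tested.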
